A study of Mus musculus with 52 samples.

Results

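The 10 genes used as markers of epithelial tumor cells (Epcam, Cdh1, Krt7, Krt8, Krt18, Krt19, Muc1, Sox9, Msln and Elf3) were followed across treatments in subcutaneous KPC tumors, a transplanted model of pancreatic adenocarcinoma. They were picked by name, with earlier results of these data known. All 10 of 10 were found among the 27525 genes of the table of 32 tumors, where together they took 0.136% of the summed normalized counts. Each of the 4 groups held 8 tumors: untreated, ADU-S100 (2 µg of this STING agonist, a cGAMP analog, injected into the tumor once), anti-LTβR (4 intraperitoneal doses of 100 µg of the agonistic antibody 4H8) and the combination of both. The hosts were male C57BL/6NHsd mice of 8 to 10 weeks, with no genetic change named for any group, and every tumor was collected on day 14 and sequenced on its own. The injected cells came from pancreatic tumors of mice in which Pdx1-Cre switched on latent mutant alleles, a heterozygous one of Trp53 among them, so the tumors share 1 source of tumor cells while stroma, vessels and immune cells are the host's. Poly(A) RNA of whole tumors was measured, at 12762453 to 15591986 recovered reads per tumor (median 14932388.5), and the values below are normalized counts, in which the reads of each tumor were scaled by that tumor's size factor. In such bulk samples, fewer cells of a type and less RNA per cell cannot be told apart.

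Simple epithelia, such as the ducts of the pancreas, build their intermediate filaments from a type II keratin paired with a type I keratin, and Krt8 with Krt18 is the first such pair to appear in the embryo. E-cadherin (Cdh1) joins neighbouring epithelial cells and EpCAM (Epcam) is an adhesion protein of their lateral surface, while tumor cells that take on a mesenchymal state usually lose both. Epidermal keratinocytes and hair follicles also make E-cadherin and, in part, EpCAM, but use other keratins in place of Krt8 and Krt18.

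For the 6 members with a RefSeq promoter entry in the table used (Epcam, Krt7, Krt8, Krt18, Muc1 and Elf3), the 250 bases upstream of the transcription start were searched on both strands for 5 short motifs. The E-box CAGGTG, a sequence recognised by the repressors Zeb1, Zeb2, Snai1 and Snai2, was present in 6 of 6, against 17.2% of all 32851 promoter windows of that length. The GC box GGGCGG was present in 3 of 6 (Epcam, Krt7 and Muc1), against 32.7% of all windows, and the TATA box TATAAA in Muc1, against 12.4%. Neither TGANTCA (AP-1, 6.75% of all windows) nor CCGGAA (ETS, 12%) was found in any of the 6, which says only that these letters are not in this window. No motif searched contains another. Krt8, Krt18 and Epcam are shown because the first pair varied together between tumors and the third did not follow them. Capitals mark CAGGTG or GGGCGG, which read CACCTG or CCGCCC when they lie on the opposite strand. Sequences run 5′ to 3′ on the strand of the gene and come from RefSeq on GRCm38.p6.
Krt8 (chr15:102004343-102004592, minus strand): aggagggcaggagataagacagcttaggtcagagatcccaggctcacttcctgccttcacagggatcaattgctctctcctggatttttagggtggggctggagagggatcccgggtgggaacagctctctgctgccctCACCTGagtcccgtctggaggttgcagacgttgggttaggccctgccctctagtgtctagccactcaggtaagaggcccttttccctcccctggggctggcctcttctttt
Krt18 (chr15:102027966-102028215, plus strand): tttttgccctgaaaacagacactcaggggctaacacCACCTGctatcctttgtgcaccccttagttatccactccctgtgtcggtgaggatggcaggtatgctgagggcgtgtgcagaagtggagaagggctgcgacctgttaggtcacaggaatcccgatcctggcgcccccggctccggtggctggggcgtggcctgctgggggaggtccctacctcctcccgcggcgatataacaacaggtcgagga
Epcam (chr17:87635729-87635978, plus strand): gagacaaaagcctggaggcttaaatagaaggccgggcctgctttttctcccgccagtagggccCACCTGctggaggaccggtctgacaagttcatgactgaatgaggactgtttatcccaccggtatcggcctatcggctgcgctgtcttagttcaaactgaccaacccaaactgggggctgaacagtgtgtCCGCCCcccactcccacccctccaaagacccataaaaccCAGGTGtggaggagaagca

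The Krt8 window held 1 E-box, at 111 to 106 bases before the start, and the Krt18 window 1, at 214 to 209 bases. The Epcam window held 2, at 187 to 182 and at 19 to 14 bases, and a GC box at 58 to 53 bases. Distances count from the RefSeq start, which is not always the outer end of the gene span printed here from GENCODE. The windows of Krt8 (with its E-box), Krt18 and Elf3 reach into that span, and the window of Krt7 lies wholly inside it. These matches are descriptions of the sequence, and no binding was measured. Cdh1, Krt19, Sox9 and Msln had no entry.

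Per kilobase of the principal transcript, the untreated tumors ordered the members over a wide range. Krt18 (5119 ± 1527 normalized counts per kb, SD, n = 8) and Krt8 (4862 ± 1029) stood highest, followed by Krt19 (2487 ± 561), Msln (1576 ± 487) and Sox9 (895 ± 175). Cdh1 was far lower (93.4 ± 33.5), and Krt7 (43.6 ± 19.7), Epcam (38.0 ± 26.1), Elf3 (15.8 ± 4.91) and Muc1 (13.8 ± 4.19) closed the order. Neighbours whose levels differed by less than the larger of their SDs were Krt18 and Krt8, Krt7 and Epcam, Epcam and Elf3, and Elf3 and Muc1. In combination tumors Krt8 (2566 ± 521) stood above Krt18 (1854 ± 483). Every member was detected in every tumor, the lowest single value being 6.88 normalized counts, of Elf3 in an anti-LTβR tumor. These tumors also carried the mesenchymal genes Vim, at a mean of 61106 normalized counts over the 32 tumors, and Fn1, at 291557, and Pdx1, a pancreatic transcription factor, at 340, while the hepatic and ductal factor Hnf4a was below 1 in 18 of the 32.

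The keratins of simple epithelia fell in combination tumors. Krt8 (chr15:101996698-102004482, minus strand, GRCm38) encodes the type II partner of the pair. It lay between 6998 and 12368 normalized counts in untreated tumors (median 9219), 6222 and 9997 after ADU-S100 (8419), 6188 and 7532 after anti-LTβR (7269) and 3372 and 6218 after the combination (5123). Combination tumors lay below all untreated and all ADU-S100 tumors, and the other groups overlapped. The log2 fold change against untreated tumors was -0.92 ± 0.143 (SE; limma adjusted p = 0.00012) for the combination, -0.40 ± 0.105 (0.021) for anti-LTβR and -0.23 ± 0.129 (0.39) for ADU-S100. A processed pseudogene, Krt8-ps, was listed at a mean of 1308 normalized counts and changed by -0.92 in the combination. The log2 ratio of Krt8 to Krt8-ps differed between combination and untreated tumors by -0.01 (exact permutation p = 0.913). Whether reads of the gene and of this copy were split between them was not tested, which leaves the level of both uncertain. The gene also overlaps Gm36026.

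Krt18 (chr15:102028180-102032027, plus strand), the type I partner of Krt8, moved further. Its values were 4832 to 10794 in untreated tumors (median 6788), 3881 to 6872 after ADU-S100 (5264), 3760 to 5087 after anti-LTβR (4296) and 1692 to 3683 after the combination (2702). No combination tumor reached the lowest tumor of any other group, and 7 of 8 anti-LTβR tumors lay below every untreated tumor. Mean levels were 36.2% of the untreated mean in the combination and 57.7% after anti-LTβR. The log2 fold changes were -1.46 ± 0.185 (limma adjusted p = 3e-05) and -0.75 ± 0.142 (0.0043), against -0.44 ± 0.164 (0.3) for ADU-S100.

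Krt19 (chr11:100140810-100148665, minus strand), a type I keratin of pancreatic ducts, ranged from 2826 to 5302 in untreated tumors (median 3905), 2620 to 4581 after ADU-S100 (4171), 2901 to 3495 after anti-LTβR (3199) and 1580 to 3973 after the combination (2300). All groups overlapped, with 5 of 8 combination tumors below every untreated tumor. It fell by 0.67 on the log2 scale in the combination (SE 0.173, limma adjusted p = 0.0052) and did not pass the test after anti-LTβR (-0.25, 0.12) or ADU-S100 (-0.06, 0.86). Krt7 (chr15:101411043-101430313, plus strand), a type II keratin of ducts, was a low-level gene here and overlaps Gm671. It lay between 95.5 and 328 in untreated tumors (median 153), 94.8 and 195 after ADU-S100 (111), 78.5 and 135 after anti-LTβR (92.5) and 43.3 and 133 after the combination (62.3). In the combination 7 of 8 tumors lay below every untreated tumor, and tumor 8 alone, at 133, did not. Its log2 fold change was -1.27 ± 0.256 (limma adjusted p = 0.0009) in the combination and -0.75 ± 0.222 (0.033) after anti-LTβR.

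**Figure D1:**
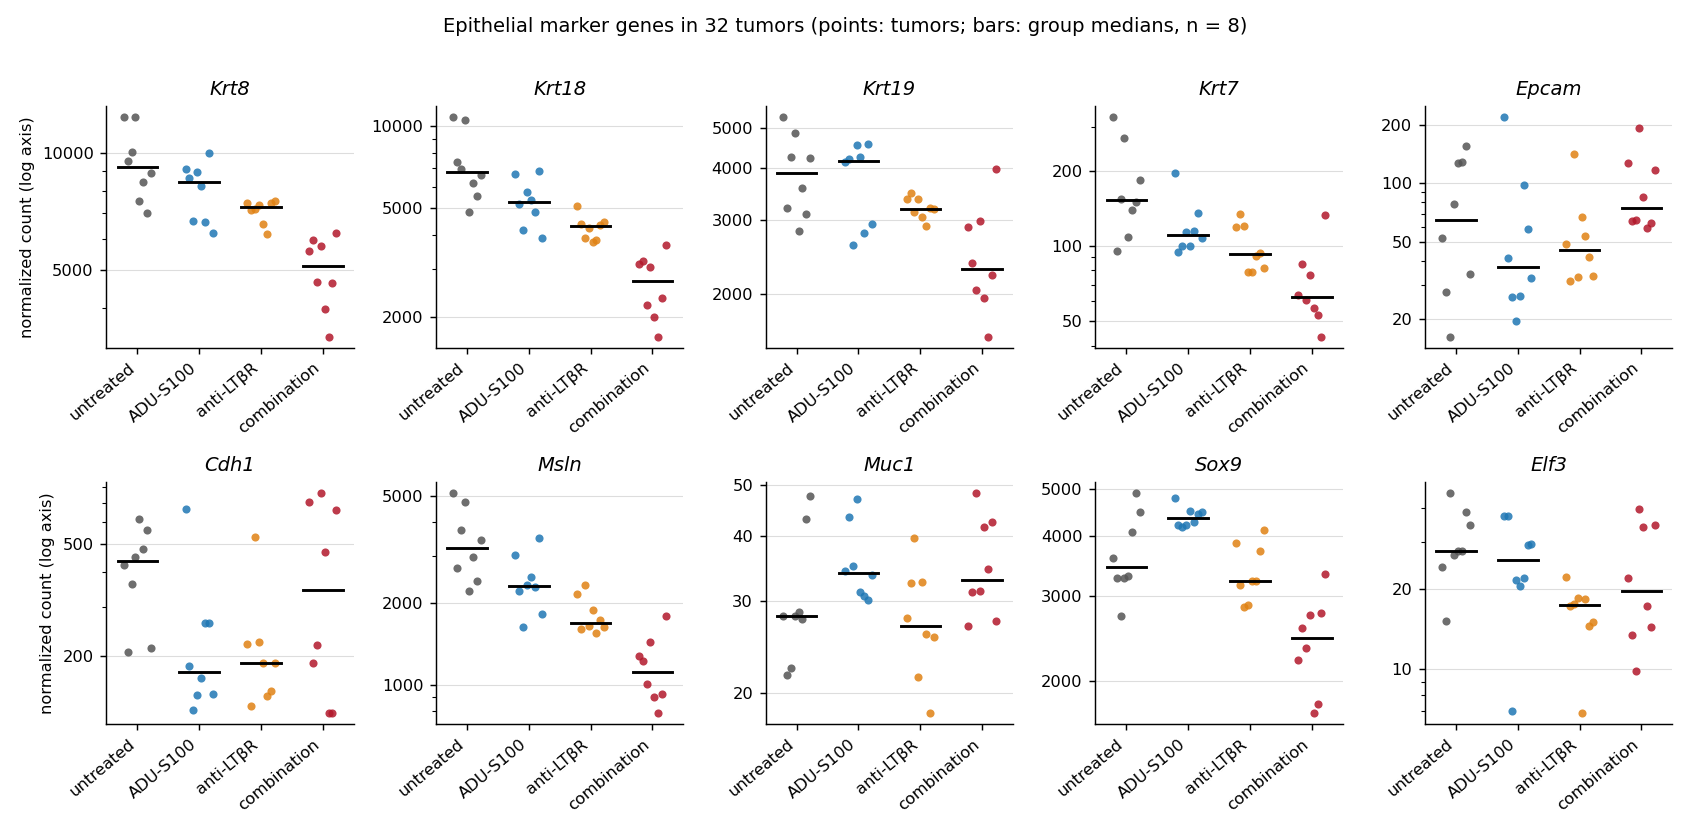
Normalized count on a log axis (vertical) of each of the 10 genes in the 4 groups (horizontal), with 1 point per tumor and a bar at the group median (n = 8). Krt8, Krt18 and Msln in combination tumors sit below all untreated tumors, while Epcam and Cdh1 spread widely in every group.

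Within single tumors Krt18 changed more than the keratin it pairs with. The log2 ratio of Krt18 to Krt8 averaged -0.40 ± 0.15 (SD, n = 8) in untreated tumors, -0.60 ± 0.11 after ADU-S100, -0.75 ± 0.10 after anti-LTβR and -0.93 ± 0.10 after the combination. The differences from untreated tumors were -0.20, -0.35 and -0.53, with two-sided exact permutation p = 0.00792, 0.000311 and 0.000155, the last being the smallest that the 12870 splits of 16 tumors allow. Adjusted over the 18 ratio tests made, p was 0.0204, 0.0014 and 0.000932. Combination tumors (-1.08 to -0.76) and untreated tumors (-0.64 to -0.20) did not overlap. The ADU-S100 tumors (-0.73 to -0.45) and the anti-LTβR tumors (-0.88 to -0.55) did overlap with the untreated ones. The size factor of a tumor all but cancels in such a ratio. Krt18 also fell relative to Krt19, by 0.79 on the log2 scale in the combination (exact permutation p = 0.000155, adjusted 0.000932) by 0.49 after anti-LTβR (0.000155, adjusted 0.000932) and by 0.37 after ADU-S100 (0.00264, adjusted 0.00792). The pairs were picked with the changes of the single genes known.

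**Figure D2:**
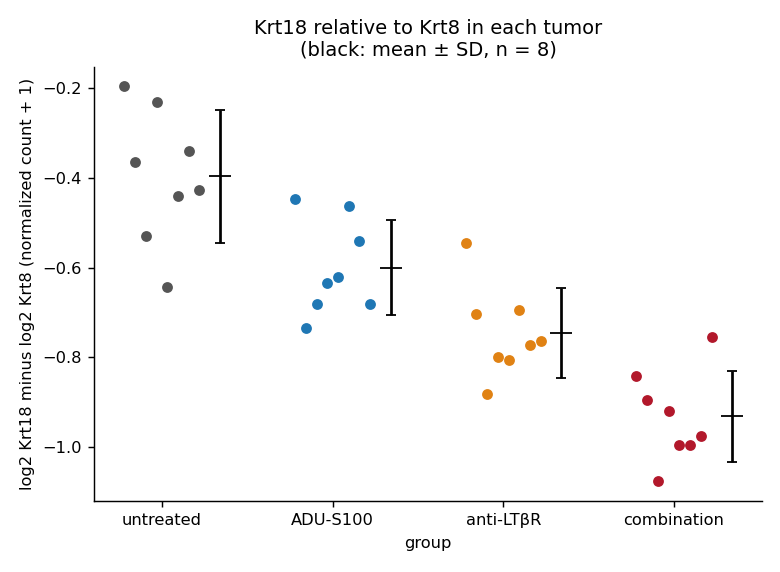
Log2 of Krt18 minus log2 of Krt8 (vertical, from normalized counts + 1) in each tumor of the 4 groups (horizontal), with the mean and SD of 8 tumors in black. The group means step from -0.40 in untreated to -0.93 in combination tumors.

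Mesothelin (Msln, chr17:25748613-25754378, minus strand), a GPI-anchored surface protein of mesothelium that pancreatic cancers often carry, changed as the keratins did. Untreated tumors held 2224 to 5099 normalized counts (median 3192), ADU-S100 tumors 1632 to 3493 (2320), anti-LTβR tumors 1554 to 2335 (1695) and combination tumors 786 to 1792 (1118). Combination tumors lay below all untreated tumors, and 7 of 8 anti-LTβR tumors did. The mean of combination tumors was 34.3% of the untreated mean, and the log2 fold change of -1.53 ± 0.192 (limma adjusted p = 2.9e-05) was the lowest of the 10 members. After anti-LTβR it was -0.86 ± 0.158 (0.0035) and after ADU-S100 -0.48 ± 0.181 (0.3). The summed level of 6 other mesothelial genes (Upk3b, Upk1b, Lrrn4, Wt1, Gpm6a and Bnc1) was 121 to 223 in untreated and 118 to 275 in combination tumors, well under Msln itself. Of the 3 of them that passed the filter, 1 rose, Gpm6a, by 2.10 (adjusted p = 5.6e-05). The other 2 were not called, and their log2 fold changes were -0.59 and -0.83. Muc1 (chr3:89229057-89233381, plus strand), a membrane mucin of the apical surface, was measured at 21.7 to 47.7 in untreated tumors (median 28.1), 30.1 to 47.1 after ADU-S100 (33.9), 18.3 to 39.6 after anti-LTβR (26.9) and 26.9 to 48.3 after the combination (33.0). The groups overlapped throughout, and Muc1 passed no test. Its log2 fold change in the combination was 0.21, with a 95% interval of -0.17 to 0.60 (limma adjusted p = 0.35).

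The adhesion genes Epcam and Cdh1 did not pass the test in the combination. Epcam (chr17:87635979-87651129, plus strand) lay between 16.3 and 155 normalized counts in untreated tumors (median 65.2), 19.6 and 219 after ADU-S100 (37.1), 31.5 and 141 after anti-LTβR (45.3) and 58.9 and 194 after the combination (75.2). Its coefficient of variation was 68.9% in untreated tumors, against 21.2% for Krt8. The log2 fold change in the combination was 0.56 with a 95% interval of -0.35 to 1.46 (limma adjusted p = 0.31), which holds rises of up to that size and leaves out falls as large as those of the keratins. Cdh1 (chr8:106603351-106670246, plus strand) spanned 207 to 617 in untreated tumors (median 436), 129 to 665 after ADU-S100 (177), 133 to 529 after anti-LTβR (190) and 126 to 759 after the combination (345). In the combination, 3 tumors lay below and 3 above every untreated tumor. Cdh1 fell after anti-LTβR (-0.94 ± 0.278, adjusted p = 0.033) and not to the threshold after ADU-S100 (-0.87 ± 0.313, 0.29) or the combination (-0.27 ± 0.409, 0.62). The anti-LTβR call of Cdh1 was lost in some other fits, among them a joint fit of 4 groups (limma adjusted p = 0.0812). Relative to Epcam, Krt18 fell by 2.01 on the log2 scale in the combination (exact permutation p = 0.00171, adjusted over 18 tests 0.00615), and relative to Cdh1 by 1.19 (0.0187, adjusted 0.042). These ratios did not pass the test after the single agents. After anti-LTβR the differences were -0.48 against Epcam (exact permutation p adjusted 0.553) and 0.19 against Cdh1 (0.778), and after ADU-S100 they were -0.09 (0.913) and 0.44 (0.357).

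Both genes varied from tumor to tumor together with genes of skin and of squamous tumor cells. The summed normalized counts of 20 genes of epidermis and hair follicle, of which Krt14, Krt10 and Krt1 had the highest means, ran from 3047 to 53235 in untreated tumors (median 18080), 1503 to 49928 after ADU-S100 (5488), 2166 to 58525 after anti-LTβR (6800) and 2127 to 73142 after the combination (26091). Krt2, a keratin of mature epidermis, was below 1 in 26 of 32 tumors, whereas other genes of mature epidermis and hair follicle were clearly present, with means over the 32 tumors of 1152 for Krt77, 1125 for Flg, 543 for Lor and 228 for Krt71. Of the 20 genes 4 also stand on the list of basal and squamous tumor genes. The summed basal and squamous list correlated with Cdh1 at r = 0.902 (rho = 0.892) and with Epcam at r = 0.765 (rho = 0.786), with group means subtracted over 32 tumors and an adjusted permutation p of 0.0003 for each. Elf3 also correlated with it (r = 0.542, rho = 0.593, adjusted permutation p = 0.0389). Those r were 0.879, 0.766 and 0.536 without the 2 tumors farthest from the median of that sum. With group means subtracted, over 32 tumors, the log2 sum of the skin genes correlated with Cdh1 at r = 0.920 (rho = 0.934) and with Epcam at r = 0.876 (rho = 0.888). Each had a permutation p of 1e-05, the smallest that 100000 permutations can give, and 0.0003 after adjustment over the 120 relations computed, of 12 list sums with 10 members. Without the 2 tumors farthest from the median of the skin sum, r was 0.897 and 0.843, and within single groups it ran from 0.842 to 0.979 for Cdh1 and from 0.842 to 0.97 for Epcam. The same correlation was 0.174 for Krt8 (adjusted permutation p = 0.525, rho = 0.155) and 0.215 for Krt18 (0.417, rho = 0.170). Within single groups these differed in sign, from -0.409 in untreated to 0.599 in combination tumors for Krt8 and from -0.324 to 0.611 for Krt18. None of the 19 skin genes tested passed the test between combination and untreated tumors, in either direction.

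**Figure D3:**
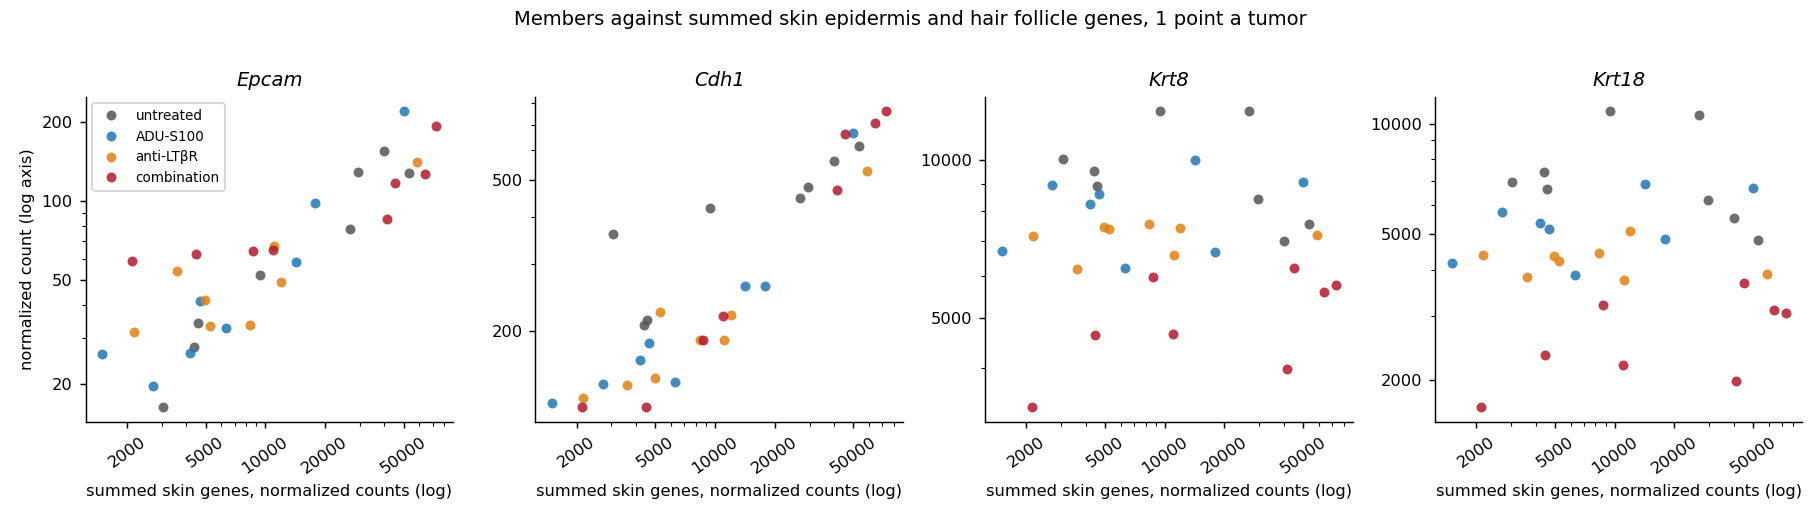
Normalized counts of Epcam, Cdh1, Krt8 and Krt18 (vertical, log axes) against the summed normalized counts of 20 skin genes (horizontal, log axis), 1 point per tumor, colored by group. Epcam and Cdh1 climb with the skin genes in all groups, with r from 0.842 to 0.979 within groups, and for Krt8 and Krt18 that r runs from -0.409 to 0.611.

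Restricting the comparison to tumors with a skin sum below 20000 normalized counts, an alternative chosen after seeing the data that leaves 4 untreated, 7 ADU-S100, 7 anti-LTβR and 4 combination tumors, changed the picture for these 2 genes. In that subset Epcam was 16.3 to 52.1 in untreated tumors (median 30.8) and 58.9 to 65.0 in combination tumors (63.5), without overlap, and its log2 fold change was 1.04 (limma adjusted p = 0.0394). Cdh1 was 207 to 422 in untreated (median 287) and 126 to 220 in combination tumors (158), and its log2 fold change of -0.83 did not pass the test (0.058). With the log2 skin sum as a covariate over all 16 tumors, the change of Cdh1 was -0.45 (adjusted p = 0.0444) and that of Epcam 0.38 (0.18). After anti-LTβR, 4 members were called in tumors low in skin genes. Cdh1 (-0.70, limma adjusted p = 0.0569), Krt7 (-0.86, 0.0635) and Elf3 (-0.81, 0.133) lost the call there and Krt19 gained it (-0.38, 0.0423), while all 6 calls held with the skin covariate. In both fits of the combination the 6 members that fell in the combination were still lower at the threshold, with Krt18 at -1.76 (0.0027) in the subset and -1.47 (2.9e-05) with the covariate.

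Of the transcription factors, Sox9 fell in the combination and Elf3 did not pass the test there. Sox9 (chr11:112782224-112787760, plus strand), a factor of pancreatic progenitor and duct cells, lay between 2728 and 4897 in untreated tumors (median 3452), 4160 and 4796 after ADU-S100 (4342), 2842 and 4118 after anti-LTβR (3221) and 1719 and 3341 after the combination (2457). Combination tumors lay below all ADU-S100 tumors and overlapped with the untreated ones. The log2 fold change against untreated tumors was -0.61 ± 0.14 (limma adjusted p = 0.0023) in the combination, -0.12 ± 0.112 (0.47) after anti-LTβR and 0.27 ± 0.0952 (0.29) after ADU-S100, and against ADU-S100 tumors it was -0.88 ± 0.11 (2.3e-05). Elf3 (chr1:135253575-135258568, minus strand), an ETS factor of epithelia that overlaps Gm26642, was measured at 15.2 to 45.5 in untreated tumors (median 27.7), 6.99 to 37.5 after ADU-S100 (25.5), 6.88 to 22.1 after anti-LTβR (17.3) and 9.85 to 39.7 after the combination (19.6). All groups overlapped. It fell by 0.84 on the log2 scale after anti-LTβR (SE 0.232, adjusted p = 0.025), and its change in the combination was -0.45 (0.22). The anti-LTβR call of Elf3 was lost in tumors low in skin genes and in some other fits given below.

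Counted over all members, combination against untreated tumors gave 6 of 10 lower (Krt7, Krt8, Krt18, Krt19, Sox9 and Msln) and 0 higher at a limma adjusted p below 0.05, where 23.6% of all 16909 genes tested were lower and 19.6% higher. The median log2 fold change of the members was -0.64, against -0.02 over all genes tested. In 3 of 10 (Krt8, Krt18 and Msln) all combination tumors lay below all untreated tumors, against 6.04% of genes tested. Anti-LTβR against untreated tumors gave 6 of 10 lower (Cdh1, Krt7, Krt8, Krt18, Msln and Elf3) and 0 higher, with a background of 8.1% lower and 7.21% higher and a median of -0.57 against 0.00. In the same comparison 5 of 12 leukocyte, 3 of 8 endothelial, 2 of 10 fibroblast and 4 of 13 proliferation genes rose and none of these lists had a gene that fell. Their part in the members' lower levels was not tested. With the log2 sum of 10 skeletal muscle genes as a covariate, added after seeing the data, Krt18 (-0.66, adjusted p = 0.019) and Msln (-0.70, 0.014) were the 2 members still called. The others kept their direction at Krt8 -0.37 (0.0572), Elf3 -0.76 (0.0694), Cdh1 -0.73 (0.103) and Krt7 -0.49 (0.109). The summed muscle genes themselves had a median of 10260 normalized counts in untreated tumors, 93386 after ADU-S100, 121062 after anti-LTβR and 118026 after the combination. ADU-S100 against untreated tumors gave 0 of 10 in either direction with limma, the background being 0% lower and 0% higher. An unadjusted p below 0.05 was reached by 5 of 10 members and by 2408 of 16613 genes, while over all genes edgeR on recovered reads called 1 and DESeq2 46 higher and 11 lower. No member was among these, of 8 that edgeR tested and 3 (Krt18, Sox9 and Msln) for which DESeq2 gave an adjusted p. All 3 comparisons used the same 8 untreated tumors.

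**Figure D4:**
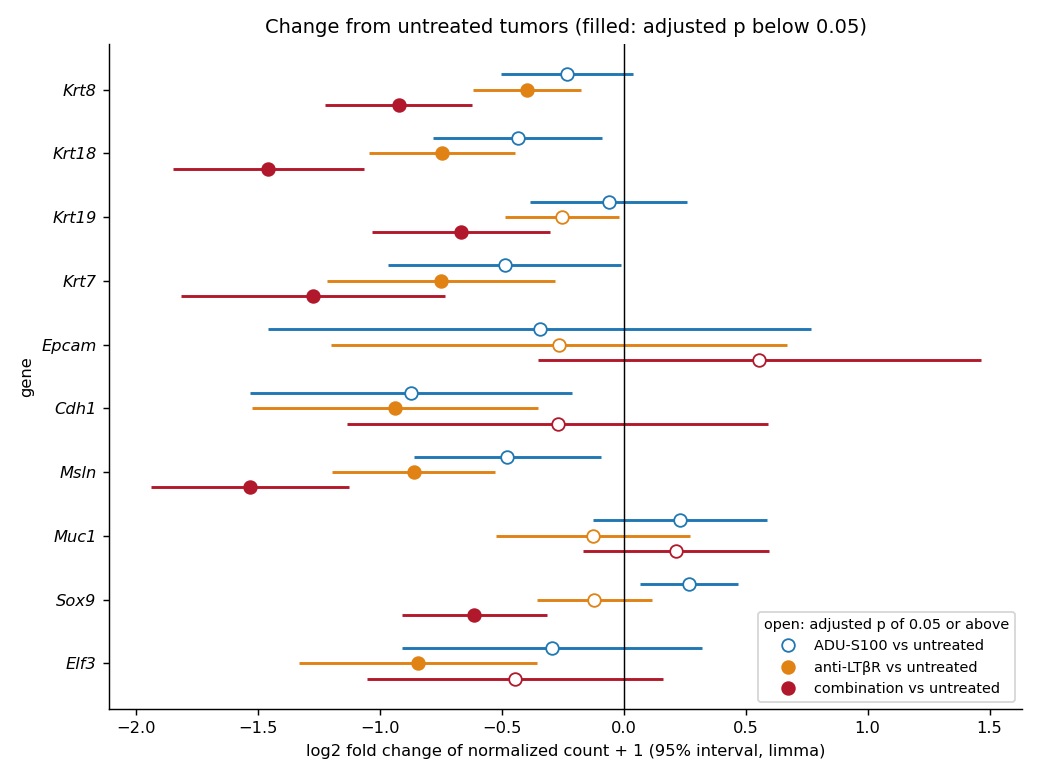
Log2 fold change of normalized count + 1 against untreated tumors (horizontal, with the 95% interval from limma) for each member (vertical) in the 3 treated groups, filled where the adjusted p is below 0.05. The intervals of Krt8, Krt18, Krt19, Krt7, Msln and Sox9 in the combination lie wholly below 0, and those of Epcam, Cdh1, Muc1 and Elf3 cross it.

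Against single agents, the combination lowered 6 of 10 members relative to ADU-S100 (Krt7, Krt8, Krt18, Krt19, Sox9 and Msln) and 0 were higher, with 26% of genes lower and 20.2% higher in the background. Relative to anti-LTβR it lowered 5 of 10 (Krt8, Krt18, Krt19, Sox9 and Msln), again with 0 higher, against 15.3% lower and 11.3% higher. Krt7 was at -0.52 (limma adjusted p = 0.055) and Epcam at 0.82 (0.06) in this comparison. With the muscle sum as a covariate both were called, Krt7 at -0.54 (0.0236) and Epcam at 0.79 (0.035), and Epcam was also called higher against ADU-S100 (0.86, 0.0395). The interaction of the agents, which asks whether the change under both differs from the sum of the changes under each, was called for 2 of 10 members over all 32 tumors. It was negative for Sox9 (-0.76 ± 0.162, adjusted p = 0.0021) and positive for Cdh1 (1.54 ± 0.541, 0.045), with 11% of genes negative and 7.33% positive in the background, so that the members' share was near it. For Krt8, Krt18, Krt19, Krt7 and Msln it lay between -0.35 and -0.04 and did not pass the test. With the skin sum as a covariate the Sox9 interaction was -0.82 (0.0022) and that of Cdh1 0.62 (0.0553).

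Between tumors of the same treatment the members fell into separate sets when all 32 tumors were pooled. Of 45 pairs, 13 had a correlation with an adjusted permutation p below 0.05 once group means were subtracted (32 tumors). The 10 pairs among Krt7, Krt8, Krt18, Krt19 and Msln were all among these, with r from 0.619 to 0.951 and a median of 0.855. Krt8 and Krt18 came first (r = 0.951, rho = 0.941, adjusted permutation p = 5.62e-05), and r stayed at 0.947 without the 2 tumors farthest from the median and between 0.717 and 0.984 within single groups. The other 3 pairs were Epcam with Cdh1 (r = 0.773, rho = 0.80, adjusted permutation p = 5.62e-05; 0.683 without the 2 extreme tumors), Cdh1 with Elf3 (r = 0.542, rho = 0.574, adjusted permutation p = 0.0234) and Cdh1 with Msln (r = 0.498, rho = 0.445, adjusted permutation p = 0.0245). The last pair did not pass by rho (adjusted permutation p = 0.0728), and its r was 0.432 without the 2 extreme tumors. Within the anti-LTβR tumors alone, r of Msln with the 4 keratins was lower, at 0.0617 to 0.412. The r of Krt7 with Krt8, Krt18 and Krt19 was lower there too, at 0.181, 0.362 and 0.453. Muc1 and Sox9 correlated with no other member at that threshold. The sets were less separate in combination tumors alone, where r of Epcam, Cdh1 and Sox9 with Krt8 was 0.573, 0.56 and 0.806. In untreated tumors it was -0.47, -0.253 and -0.511, and in the single-agent groups it ran from -0.304 to 0.425. The sets were named after these values were seen. All tumors share 1 table and its size factors, and Krt8 and Krt18 are neighbours on chromosome 15.

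**Figure D5:**
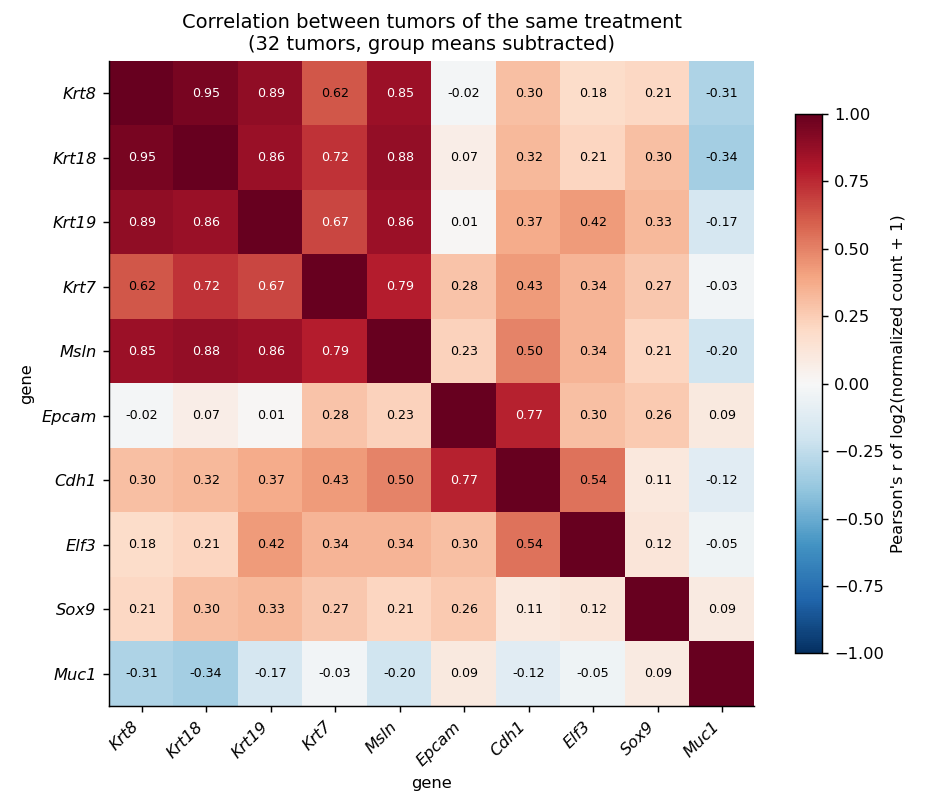
Pearson's r of log2(normalized count + 1) between each pair of the 10 genes (both axes list the genes) over 32 tumors with group means subtracted, from blue (-1) to red (1). The 5 genes Krt8, Krt18, Krt19, Krt7 and Msln form a block of r from 0.62 to 0.95, and Epcam and Cdh1 pair at 0.77.

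Over 17028 genes with a mean of at least 10 normalized counts, genes most like the mean of the 10 standardised members across the 32 tumors (group means subtracted) included Sqle (r = 0.911), Eps8l2 (0.890), Msmo1 (0.878) and Fdps (0.875). Sqle, Msmo1 and Fdps encode enzymes of cholesterol synthesis. Most like Krt8 were its pseudogene Krt8-ps (0.923), the actin-bundling gene Pls3 (0.903) and the annexin Anxa2 (0.90). Most like Epcam were Acpp (0.933), Fgfr3 (0.923) and Cers4 (0.919).

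Of 25 listed regulators, surface proteases, integrins and junction genes, 24 were tested in combination against untreated tumors, where 7 fell and 2 rose with a median log2 fold change of 0.18, against -0.02 over all genes, 23.6% of which fell and 19.6% rose. The share that fell was near that background and the share that rose was below it. Falling genes included the hemidesmosome integrin chains Itgb4 (-0.70, limma adjusted p = 6e-05) and Itga6 (-0.93, 0.00021) and the Krüppel-like factor Klf5 (-0.73, 0.00022). Of the list of ductal and gastric-type pancreatic tumor genes, 9 of 20 passed the filter, and 6 fell and 1 rose, with a median of -0.46. Among those that fell were the tetraspanin Tspan8 (-0.98, limma adjusted p = 5.8e-05) and the pancreatic factor Pdx1 (-0.46, 0.00063). Of the mesenchymal list, 2 of 12 rose (Sparc by 1.25 and Prrx1 by 0.79) and 2 fell, one of them S100a4 (-0.86, 0.00025), shares close to or below those over all genes. Of 10 basal and squamous genes tested, none passed the test in either direction, with a median of 0.02. None of 13 proliferation genes passed it either, and their median was 0.02.

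Markers of other cell types moved with the same comparison. The summed level of 10 fibroblast genes, led by Col3a1, Col1a1 and Col1a2, was 92725 to 145247 in untreated and 164992 to 600966 in combination tumors, without overlap, and 10 of 10 rose (median log2 fold change 1.53). The sum of 8 endothelial genes was 1598 to 2311 and 3048 to 4136, and 8 of 8 rose. Of 12 leukocyte genes 8 rose, and their sum was 9022 to 13189 and 12913 to 21952. None of the 6 adipocyte genes and none of the 10 muscle genes passed the test. The median log2 fold change of the muscle genes was 1.55 after ADU-S100, 1.59 after anti-LTβR and 1.48 after the combination, and their sum spread from 6727 to 141297 in untreated and from 7921 to 421420 in combination tumors. Between tumors of the same treatment the muscle sum correlated with Cdh1 (r = -0.624, rho = -0.598, adjusted permutation p = 0.00564), Krt7 (r = -0.597, rho = -0.608, adjusted permutation p = 0.00895), Epcam (r = -0.570, rho = -0.575, adjusted permutation p = 0.0128) and Msln (r = -0.558, rho = -0.572, adjusted permutation p = 0.0237). Those r were -0.662, -0.632, -0.578 and -0.583 without the 2 tumors farthest from the median of the muscle sum. The sum of 13 proliferation genes correlated with Krt8 (r = 0.660, rho = 0.608, adjusted permutation p = 0.0026), Krt19 (r = 0.649, rho = 0.618, adjusted permutation p = 0.0039), Krt18 (r = 0.625, rho = 0.563, adjusted permutation p = 0.00467), Msln (r = 0.594, rho = 0.494, adjusted permutation p = 0.009) and Krt7 (r = 0.482, rho = 0.451, adjusted permutation p = 0.0426). By rho, Msln (0.0518) and Krt7 (0.0695) did not pass. Without the 2 tumors farthest from the median of that sum, r was 0.624, 0.587, 0.583, 0.486 and 0.498. Within the anti-LTβR tumors alone it was -0.0172, 0.282, -0.0701, -0.443 and 0.198. The endothelial sum correlated with Krt8 (r = -0.510, adjusted permutation p = 0.0402), though not by rho (-0.454, 0.0777), and at r = -0.583 without the 2 extreme tumors. With the sum of the 25 other epithelial genes, Sox9 (r = 0.718, rho = 0.563, adjusted permutation p = 0.00192), Epcam (r = 0.538, rho = 0.591, adjusted permutation p = 0.00274) and Cdh1 (r = 0.568, rho = 0.520, adjusted permutation p = 0.0474; by rho 0.0577) correlated, at 0.596, 0.588 and 0.450 without the 2 extreme tumors. Krt19 correlated with the ductal sum (r = 0.519, rho = 0.603, adjusted permutation p = 0.035), at 0.605 without the 2 extreme tumors. Krt8 passed there by rho (0.512, adjusted permutation p = 0.0454) and not by r (0.396, 0.164). Neither the fibroblast nor the leukocyte sum reached an adjusted permutation p below 0.05 with any member, by r or by rho. For Krt8, r was -0.402 with the fibroblast sum and -0.468 with the leukocyte sum. Because fibroblast and endothelial sums of combination and untreated tumors do not overlap, their part in the lower keratin levels cannot be told apart from the treatment in these data.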

How the data were processed

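Individual tumors were sequenced as poly(A) RNA, and groups and tumor numbers were taken from the sample labels. The study describes these data as 1 experiment in one place and as 2 combined experiments in another, and with no batch label all tumors of a group were treated as replicates of 1 experiment. The table of 32 tumors that the authors deposited holds a signal, read numbers scaled by each tumor's size factor. A larger table the authors deposited, with 52 libraries, holds a signal of the same kind, from which whole reads were recovered (100% of values whole within 0.1 of a read), and it lists 8 of the 10 members, without Krt8 and Krt19. The methods name HISAT2 and StringTie, and the reporting summary STAR in Partek Flow. The authors' name for the table of 32 tumors includes Partek, and beyond that which of them made each table was not settled. Deposited tables of the authors' gene set enrichment were not used, and 0 columns of samples were left unused. The labels name the build mm39, and because 25130 of 26500 genes had the same length and 572 the same start in GENCODE's GRCm38 annotation, positions printed are those of GRCm38.

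Genes passing filterByExpr of edgeR 4.0.16 (count minimum 10) were tested on log2(normalized count + 1) with limma 3.58.1 in R 4.3.3 (trend, two-sided, Benjamini-Hochberg over all genes tested, threshold 0.05), with the 16 tumors of a comparison in each fit and all 32 for the interaction. All 10 members passed the filter. Fold changes are on the log2(value + 1) scale, which understates changes of low genes. Alternatives were edgeR and DESeq2 1.42.0 on recovered reads, other pseudocounts, filters and fits, and, added after seeing the data, skin and muscle sums. Correlations used permutations within groups (100000), and ratios of members exact permutation tests, in SciPy 1.17.1 and NumPy 2.4.6. The tests across genes were checked on simulated counts. Lengths are those of the principal transcript. Deviations from group means were correlated between tumors of the same number as a check of pairing.

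The members and gene lists were chosen with earlier results of these data known. Named genes are all members, at most 3 genes of each list (smallest adjusted p in the combination, or highest mean for cell types), and the genes most like the members. Some genes that this rule names, and part of the tumor cells' genotype, are not reported here. Genes named beyond this rule (Vim, Fn1, Hnf4a, Krt2, Krt77, Flg, Lor, Krt71 and the overlapping genes) were chosen after their values were seen. The 6 mesothelial genes are also named beyond it, to spell out the genes in that sum. At 12762453 to 15591986 recovered reads per tumor, genes of 20 to 50 normalized counts, such as Muc1 and Elf3, have a sizeable counting error.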

Additional observations from a re-analysis of the deposited data

Results flagged for a closer look

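In all, 6 values stood apart from the 7 other tumors of their group by Dixon's ratio of the gap to the group's range, in 40 groups checked (10 genes in 4 groups). For independent groups of normally distributed values, chance alone would flag about 1 in 20. The ratio was taken on normalized counts without logs, and the genes share tumors, so that rate need not hold here. In ADU-S100 tumor 1, Epcam (219.4 normalized counts, nearest tumor 97.7), Cdh1 (665.3, nearest 263) and Krt7 (195.4, nearest 136) were all high. In anti-LTβR tumor 3, Epcam (141.2, nearest 67.5) and Cdh1 (528.7, nearest 224) were high. In combination tumor 8, Krt7 (132.6, nearest 84.9) was high. ADU-S100 tumor 1 and anti-LTβR tumor 3 also held the highest skin gene sums of their groups, at 49928 and 58525, and the part of these in the values was not tested apart from the fits with the skin sum.

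The change under both agents differed from the sum of the single changes for 2 of 10 members, 1 in each direction, which is near the share over all genes (11% negative and 7.33% positive). The interaction on the log2 scale was 1.54 for Cdh1 (limma adjusted p = 0.045) and -0.76 for Sox9 (0.0021). Without the skin-rich tumors the values were 0.54 (0.301) and -0.87 (0.0035).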

How the results depend on the processing

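Over members and comparisons, 455 refitted fold changes kept their direction and side of the threshold, 6 lost the call, 1 gained it and 9 changed sign. In the fits added after seeing the data these numbers were 147, 10, 8 and 15. For 5 members DESeq2 gave no adjusted p for ADU-S100 against untreated tumors, and these are not counted. None of the 24 values that changed sign was called before or after. With edgeR (TMM, RLE, library totals) and DESeq2, Muc1 in combination against ADU-S100 tumors came to 0.028, 0.017, 0.019 and 0.013 and the interaction of Krt7 to 0.11, 0.13, 0.10 and 0.13, and with library totals Cdh1 in combination against untreated tumors came to 0.0046. In tumors low in skin genes, Epcam came to 0.32 after ADU-S100 and 0.50 after anti-LTβR, Muc1 to 0.12 and Cdh1 to -0.16 in combination against ADU-S100, and Cdh1 to -0.13 and Elf3 to -0.17 in combination against anti-LTβR. With the skin sum as a covariate, Epcam came to 0.27 after ADU-S100 and 0.18 after anti-LTβR, and Cdh1 to -0.061 and Muc1 to 0.068 in combination against ADU-S100. With the muscle sum, Epcam came to 0.24 and Krt19 to 0.014 after ADU-S100, Epcam to 0.15 and Muc1 to 0.047 after anti-LTβR, and Cdh1 to 0.078 in the combination. Requiring at least 2-fold left 3 members called in combination against untreated tumors, 2 against ADU-S100, 0 against anti-LTβR, 0 for anti-LTβR against untreated tumors and 1 for the interaction. With edgeR (TMM, RLE or library totals) and with DESeq2 on recovered reads, which cover 8 members, 3 were called in combination against anti-LTβR, since Krt8 and Krt19 were not in that table. With the muscle sum as a covariate, anti-LTβR against untreated tumors kept 2, and the interaction was called for 1 member with that covariate, with the skin sum as a covariate, in tumors low in skin genes, and with no filter. Whether tumor numbers pair the tumors was not settled. The lowest correlation of same-numbered tumors was below 0 in every comparison (-0.53 for anti-LTβR against untreated), which can occur with or without pairing. Their mean r was 0.186 for ADU-S100 against untreated and 0.173 for combination against anti-LTβR, where other numbers gave -0.029 and -0.025. It was -0.085 for anti-LTβR against untreated, 0.018 for combination against untreated and -0.072 for combination against ADU-S100. Other numbers gave 0.0098, -0.0022 and 0.010 there. With the replicate block, anti-LTβR against untreated tumors kept 4 members. Krt7 (limma adjusted p = 0.0564) and Elf3 (0.0539) lost the call. With the block 6 were called against untreated tumors in the combination, 6 against ADU-S100, 5 against anti-LTβR, 0 for ADU-S100 and 2 for the interaction. Of 45 member pairs, 13 had r of at least 0.498, the lowest r called, against 12 without the 2 extreme tumors and 13 with a pseudocount of 0.1. Cdh1 after anti-LTβR also lost its call in the joint fit of 4 groups (0.0812) and with library totals (0.0561), and Krt19 in combination against anti-LTβR with no filter (0.0531).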

Other observations

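The larger table holds 20 libraries of another experiment that enter no comparison. For 15 of them the labels contradict each other, so they were put in no group, and 5 are labelled as combination. Across the 20, Krt18 ran from 1597 to 33842 normalized counts (median 7458), Msln from 296 to 16606 (2174) and Sox9 from 621 to 2085 (1542). The highest Krt18, Krt7 (1111), Msln and Muc1 (223) values all belonged to the same library labelled combination, with the next library at 10981, 240, 6365 and 36.1. The highest Epcam (844) and Cdh1 (1572) values belonged to another library labelled combination, against medians of 70.5 and 353. Size factors in this table were set over all 52 libraries, and across the 32 tumors of the main experiment its Krt18 values ran from 1787 to 10946.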
